A study of Mus musculus with 8 samples.

Results

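The colony stimulating factors Csf1, Csf2 and Csf3 and their receptor chains Csf1r, Csf2ra, Csf2rb, Csf2rb2 and Csf3r were examined in NMuMG-NT2197 cells carrying mutant or wild-type ShcA. NMuMG is an established line from mouse mammary gland epithelium. ShcA is an adaptor protein whose PTB domain binds phosphorylated tyrosines on receptors, and R175Q exchanges the arginine at residue 175 for glutamine. The members were taken as every non-control probe annotated with one of these 8 gene names, which gave 15 probes of 39429 on the array, for 8 of 30222 gene names. The family was selected on the measured difference between the groups: it was chosen by Csf2rb, which had the largest rise of all named genes in R175Q cells. That difference is therefore only described for the members. Their calls in the test over all probes are given as part of that description and not as evidence.

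Two-colour Agilent arrays compared 4 R175Q samples with 4 wild-type samples. Cells of both groups were transfected with the pMSCV/hygro vector, holding the ShcA R175Q cDNA in one group and the wild-type ShcA cDNA in the other, so both carried an introduced ShcA and no untransfected cells entered the comparison. Each sample was labelled with Cy3 after 2 rounds of amplification from 1 to 2.5 ng of RNA, and was hybridised against one reference RNA in Cy5. The labels call this reference mouse in one place and human in another, and call the starting material microdissected while describing cultured cells; they do not say whether replicates came from separate cultures, so the spread between arrays may be technical.

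Granulocyte-macrophage colony stimulating factor, the product of Csf2, binds an alpha chain encoded by Csf2ra, and the bound pair recruits the beta chain encoded by Csf2rb. That beta chain has no ligand of its own. It also serves the interleukin-3 and interleukin-5 receptors through their alpha chains Il3ra and Il5ra, carries the kinase Jak2, activates Stat5, and is phosphorylated on a tyrosine to which the PTB domain of Shc binds. Mice have a second beta chain gene, Csf2rb2, a close copy of Csf2rb whose product works with the interleukin-3 alpha chain. Csf1 acts on macrophages through the receptor tyrosine kinase Csf1r, and Csf3 on granulocytes through Csf3r; carcinoma cells are better known as sources of these factors than as carriers of the receptors.

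Because Csf2rb and Csf2rb2 are near copies, the sequences that tell them apart are shown first. Each gene had 2 probes of 60 bases, numbered here from the brighter by the mean signal of Cy3 and Cy5 together. Csf2rb2 probe 1 comes first through its Cy5 reference signal. In Cy3, the sample channel, it was the dimmer of the 2 Csf2rb2 probes in both groups. The 4 probes lie in a short stretch of chromosome 15 in the mm9 build: Csf2rb probe 1 at chr15:78181168-78181227 and probe 2 at chr15:78179504-78179563, both on the plus strand, and Csf2rb2 probe 1 at chr15:78113126-78113185 and probe 2 at chr15:78114097-78114156, both on the minus strand. Whether they fall in coding or untranslated exon sequence was not determined here. Csf2rb probe 1 and Csf2rb2 probe 1 align over 31 bases, of which 28 are identical and 3 differ. The next 2 lines give 30 bases of that alignment, 5′ to 3′, from base 31 of the Csf2rb probe and base 13 of the Csf2rb2 probe, with the differing bases in capitals:
Csf2rb probe 1: gcagatcaaAtgtCccttggtctCtgttca
Csf2rb2 probe 1: gcagatcaaGtgtTccttggtctAtgttca
The other pairings of a Csf2rb with a Csf2rb2 probe align over no more than 5 or 6 bases. Only probes were compared with probes, so how far any of them resembles the transcript of the other gene was not tested. The first 30 bases of both probes 2 are:
Csf2rb probe 2: ctatcagcccatgccccaggcgccagccat
Csf2rb2 probe 2: taaaattgggcaggctcttgttgctccaag
These 4 probes shared no run longer than 16 bases with a probe of any gene of another name. The Csf2ra probe, at chr19:61300336-61300395 on the minus strand, shared at most 12; it is shown because it moved the other way, and its first 30 bases are:
Csf2ra probe 1: tcataaaatccaacgtgccttcatgatcaa
The Csf3r probe, at chr4:125721478-125721537, is the exception among the 15. It shared a run of 18 or more bases with 5 probes of other genes, against 0 such probes for each of the other 14 member probes. Its last 30 bases, from base 31 to base 60, all lie in the longest shared run and are therefore in capitals:
Csf3r probe 1: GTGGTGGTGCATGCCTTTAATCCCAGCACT
It is therefore not specific to the granulocyte receptor by sequence.

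Values are the log2 of Cy3 over Cy5, the sample relative to the reference at the same probe, after background correction and normalisation. A probe counted as measured where the scanner software called its Cy3 signal well above background on 4 or more arrays of 8, which held for 14 of the 15 probes. Csf1 probe 4 was well above background on 0 arrays and has no measured level. With limma's moderated test over all 22841 probes and a Benjamini-Hochberg adjusted p under 0.05, 6 of the 14 member probes were called, 5 higher and 1 lower in R175Q; over all probes 18.7% were called, 8.92% higher and 9.73% lower. Of all calls 47.8% were thus higher, and 58.9% where arrays were centred on their median in place of loess. The called probes belong to 4 genes, Csf2rb, Csf2rb2, Csf1 and Csf2ra. In 7 of the 14 the groups did not overlap, against 23.4% of all probes. The members include the genes for which the family was picked, so these counts are a description from which nothing is read. The median difference over the 14 was 0.18, and over all probes -0.02.

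**Figure D1:**
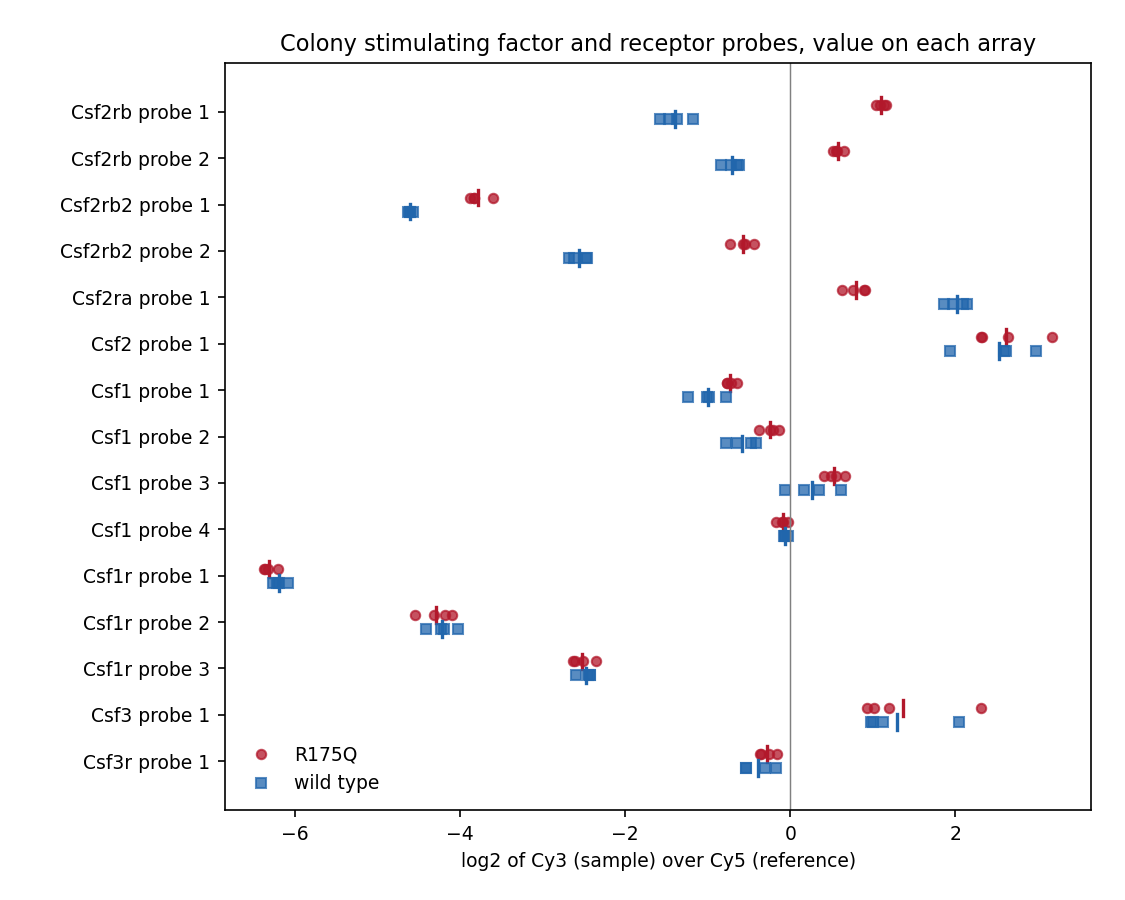
Each point is one array, with the log2 of sample over reference on the x axis and the 15 probes as rows; circles are the 4 R175Q and squares the 4 wild-type arrays, and the short bars are group means. The groups stand clear of each other for Csf2rb, Csf2rb2 and Csf2ra and overlap for Csf2, Csf3, Csf3r and Csf1r.

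The shared beta chain gene differed most. At Csf2rb probe 1 the 4 R175Q arrays read 1.09, 1.04, 1.16 and 1.13, and the 4 wild-type arrays read -1.47, -1.58, -1.18 and -1.38. All R175Q arrays were above the reference and all wild-type arrays below it, with no overlap. The group means were 1.10 ± 0.05 and -1.40 ± 0.17 (SD, n = 4 each), a difference of 2.51 ± 0.08 (limma standard error) on the log2 scale, or 5.68-fold. In these bulk samples more cells with the transcript and more transcript per cell cannot be told apart.

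The difference was visible in the uncorrected signals. The Cy3 signal of Csf2rb probe 1 was 4385, 5200, 4194 and 3958 on the R175Q arrays and 595, 408, 653 and 517 on the wild-type arrays. Its Cy5 reference signal ran from 2873 to 3762 beside the R175Q samples and from 2255 to 2991 beside the wild-type samples, so the reference ranges overlapped where the sample ranges lay far apart. Arrays shared slides, and on the 3 slides that held both groups the difference was 2.51, 2.54 and 2.51.

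Csf2rb probe 2, which aligned with neither Csf2rb2 probe over more than 6 bases, gave the same direction with a smaller size. It read 0.56, 0.52, 0.65 and 0.56 on the R175Q arrays and -0.64, -0.71, -0.62 and -0.84 on the wild-type arrays, without overlap. The difference was 1.28 ± 0.06, or 2.42-fold, and 1.16, 1.31 and 1.40 within slides. It was 0.64 with the background fitted to all spots and 1.75 with the scanner's ratio. This was a dim probe, with Cy3 signals of 289 to 309 in R175Q and 101 to 110 in wild type.

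Csf2rb2, the interleukin-3 beta chain, was also higher in R175Q at both probes. Probe 2 read -0.55, -0.73, -0.44 and -0.58 on the R175Q arrays and -2.63, -2.68, -2.47 and -2.48 on the wild-type arrays. The groups were far apart, by 1.99 ± 0.08 or 3.97-fold, and the difference ranked 4 among the rises of all probes tested. Its Cy3 signal was 585 to 681 in R175Q and 116 to 157 in wild type, while the reference overlapped at 1486 to 1807 and 1337 to 1604. Within slides the difference was 1.90, 2.13 and 1.90. It was 0.93 with the background fitted to all spots and 2.50 with the scanner's ratio.

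At Csf2rb2 probe 1, which carries the stretch aligned with Csf2rb probe 1, the R175Q arrays read -3.83, -3.83, -3.61 and -3.88 and the wild-type arrays -4.61, -4.57, -4.64 and -4.61. The groups did not overlap, and the difference was 0.82 ± 0.07 or 1.77-fold, with 0.77, 1.00 and 0.74 within slides. Both groups lay far below the reference, 13.8-fold in R175Q and 24.4-fold in wild type. Cy3 was 172 to 194 in R175Q against 83.2 to 93.8 in wild type, close to the dimmest signals that pass the filter. With the background fitted to all spots, the value turned to -0.21, the only difference among the called member probes whose sign changed in any alternative run.

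Csf2ra, the alpha chain that binds granulocyte-macrophage colony stimulating factor, went in the opposite direction to the beta chains. Its only probe read 0.75, 0.63, 0.89 and 0.90 on the R175Q arrays and 1.97, 1.87, 2.14 and 2.10 on the wild-type arrays. All samples lay above the reference, the R175Q samples by less, with no overlap. The difference was -1.23 ± 0.08, a level 2.34-fold lower in R175Q, and -1.35, -1.11 and -1.20 within slides. With the background fitted to all spots it was -0.72 and was no longer called. By size it ranked 33 among the falls of 14877 named genes.

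The signals behind Csf2ra were low, and the reference moved too. Cy3 was 199, 167, 204 and 191 in R175Q against 538, 496, 750 and 559 in wild type. The Cy5 signal, which comes from the same reference RNA on every array, was 203 to 237 beside the R175Q samples and 265 to 329 beside the wild-type samples, also without overlap and in the same direction as the samples. Taken from Cy3 alone, with no use of the reference, the difference was -1.70. What part the Cy5 signal has in the difference was not tested.

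**Figure D2:**
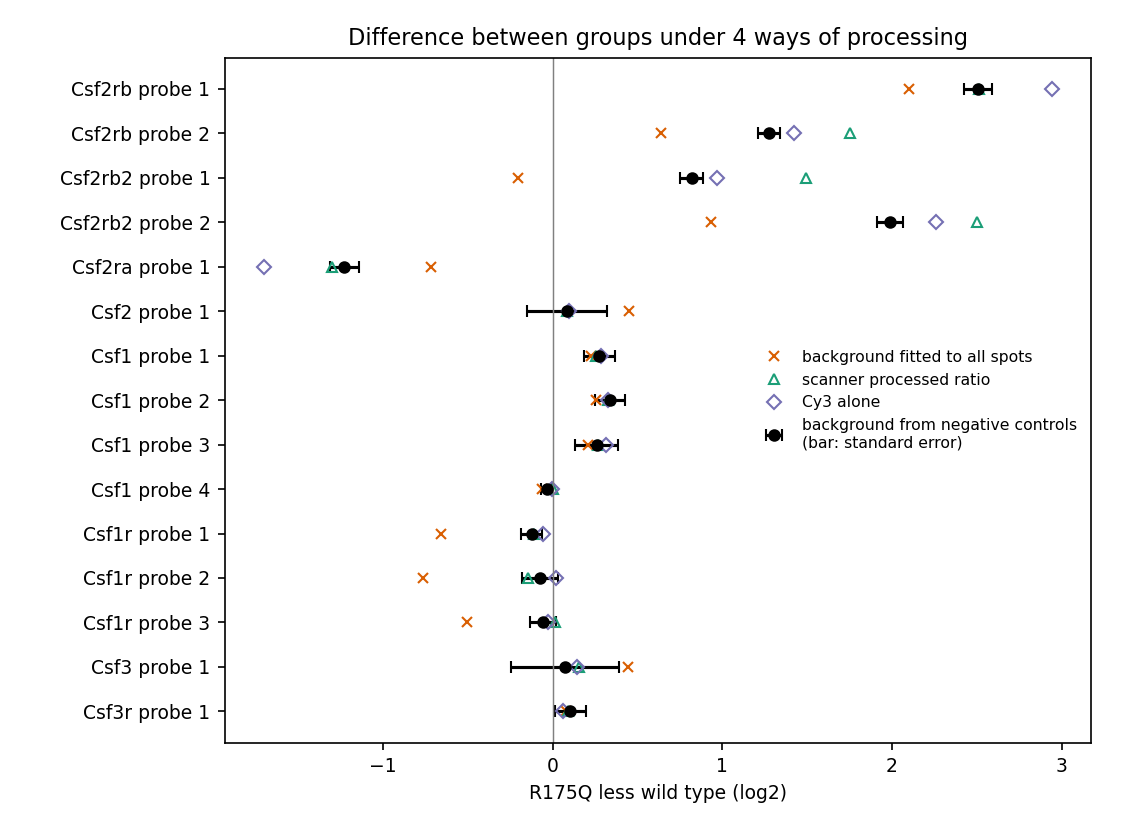
The x axis is R175Q less wild type (log2) for the 15 probes; black points with standard errors use the background of the negative controls, and the other symbols give 3 alternatives. Csf2rb, Csf2rb2 probe 2 and Csf2ra keep their direction in each, whereas Csf2rb2 probe 1 is at 0.82, 1.49, 0.97 and, with the background fitted to all spots, -0.21.

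The ligand of this receptor did not follow its chains. Csf2, measured by a probe printed as 10 spots, read 2.31, 2.32, 3.17 and 2.64 on the R175Q arrays and 2.62, 1.93, 2.97 and 2.58 on the wild-type arrays. The groups overlapped throughout, with means of 2.61 ± 0.40 and 2.53 ± 0.43 (SD, n = 4 each) and a difference of 0.08 ± 0.23. Csf2 was 6.10-fold above the reference in R175Q and 5.76-fold in wild type. Within slides the difference was -0.29, 0.72 and 0.05, with both signs.

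Csf1, the macrophage growth factor, had 3 measured probes, all slightly higher in R175Q. Probe 1, printed as 10 spots and placed at chr3:107544333-107544392, was the brightest; it read -0.76, -0.77, -0.65 and -0.72 on the R175Q arrays and -1.01, -0.78, -1.24 and -0.99 on the wild-type arrays. The groups were separated by less than the spread of the wild-type arrays, and the difference of 0.28 ± 0.09 was not called. Its Cy3 signal was 8420 to 11420 in R175Q and 6751 to 8606 in wild type, ranges that overlap.

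The 2 other measured Csf1 probes are not independent of each other. Probe 2 at chr3:107548521-107548580 and probe 3 at chr3:107548550-107548609 share a run of 31 bases. Probe 2 read -0.24, -0.21, -0.38 and -0.14 against -0.48, -0.65, -0.78 and -0.41, without overlap, a difference of 0.34 ± 0.09 that was called. The call of probe 2 was lost with the background fitted to all spots, the scanner's ratio and scan day as a block, and without R175Q replicate 1, 2 or 4 or wild-type replicate 2. Probe 3 read 0.49, 0.56, 0.41 and 0.66 against 0.35, 0.17, -0.06 and 0.61, with overlap, a difference of 0.26 ± 0.13 that was not. The 3 sizes, between 1.20- and 1.26-fold, were alike although only 1 passed the threshold.

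Csf1r, the receptor for Csf1, lay far below the reference at each of its 3 probes in both groups. Probe 1 read -6.37, -6.37, -6.21 and -6.32 in R175Q and -6.26, -6.20, -6.09 and -6.22 in wild type, about 79.8-fold and 73.2-fold below the reference. Probe 2 read -4.32, -4.55, -4.19 and -4.10 against -4.42, -4.03, -4.19 and -4.23, and probe 3 read -2.64, -2.51, -2.36 and -2.61 against -2.59, -2.42, -2.43 and -2.45. No probe separated the groups. The differences at probes 1, 2 and 3 were -0.12 ± 0.06, -0.07 ± 0.11 and -0.06 ± 0.08. Its Cy3 signals ran only from 79.1 to 170, and probes 2 and 3 were well above background on 3 of the 4 R175Q arrays. With the background fitted to all spots the same differences were -0.66, -0.76 and -0.50, so at this low signal the size depended on the background correction.

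Csf3, the granulocyte growth factor, was set by single arrays. It read 1.01, 2.31, 1.19 and 0.93 on the R175Q arrays and 2.04, 1.12, 0.98 and 1.00 on the wild-type arrays. One array of each group, R175Q replicate 2 and wild-type replicate 1, stood at 2.31 and 2.04 while the other 6 lay between 0.93 and 1.19. These 2 arrays shared a slide and were its only arrays, and their Cy3 signals of 333 and 212 compare with 92.2 to 114 on the others. The difference was 0.07 ± 0.32, and 0.26, 0.14 and -0.07 within slides.

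Csf3r, measured by the probe with repeated sequence, read -0.36, -0.37, -0.26 and -0.16 on the R175Q arrays and -0.53, -0.17, -0.31 and -0.54 on the wild-type arrays. The groups overlapped, with a difference of 0.10 ± 0.09. Its signal was the brightest of the members in Cy3, 14831 to 22087, on the probe whose sequence other genes share.

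Set beside the largest rises of other genes, Csf2rb at 2.51 was followed by Mgp, the matrix Gla protein, at 2.37, Gpnmb, a transmembrane glycoprotein, at 2.16, and Serpina3m, a serine protease inhibitor, at 1.89. The standard errors of Csf2rb and Mgp were 0.08 and 0.10, so their order is not settled beyond the error.

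Among the genes whose values were most like those of Csf2rb probe 1 over the 8 arrays were Gpnmb (Pearson r 0.999), Atp11a, a phospholipid flippase (0.998), Antxr1, an anthrax toxin receptor (0.998), and Nrp2, a neuropilin (0.998), out of 13292 genes compared. Their differences between the groups were 2.16, 1.06, 1.16 and 0.85. The 8 values form 2 groups, so the r mostly restates that each gene separates them.

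Il5ra and Il3ra, the other alpha chains that pair with the beta chain, were tested in a list with other ligands and receptors of blood cell growth and of the cytokine receptor family. This list of 16 had 10 measured genes, of which 3 rose, 1 fell and 6 were not called, with a median difference of 0.13 against -0.01 over the brightest probes of all 17451 genes, where 9.51% were called higher and 9.67% lower. Il5ra, the interleukin-5 alpha chain, read 1.81, 2.22, 1.57 and 1.06 on the R175Q arrays and 3.51, 3.04, 2.35 and 3.32 on the wild-type arrays. It was lower on every R175Q array than on any wild-type array, and it fell by 1.39 ± 0.28 (limma adjusted p = 0.0064), the same direction as Csf2ra.

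The Il5ra signal was low, at 147 to 217 in R175Q and 312 to 558 in wild type, and its call was lost with the background fitted to all spots (-0.46, adjusted p = 0.53) and with the scanner's own ratio (-1.41, adjusted p = 0.059). Il3ra, the interleukin-3 alpha chain, read 0.52, 0.49, 0.51 and 0.43 against 0.21, 0.15, 0.34 and 0.18. These groups did not overlap either, but in the other direction: Il3ra rose by 0.27 ± 0.06 (limma adjusted p = 0.0122), and the call was lost with the background fitted to all spots (adjusted p = 0.13), with Cy3 alone (0.064), and with slide (0.054) or scan day (0.057) as a block. So among the 3 alpha chains of the beta chain's receptors, Csf2ra and Il5ra were lower in R175Q and Il3ra slightly higher.

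Il2rg, the common gamma chain of interleukin receptors, read -3.06, -3.03, -3.02 and -3.06 against -3.76, -3.68, -3.74 and -3.64. The arrays of each group lay close together, and Il2rg rose by 0.67 ± 0.05 (limma adjusted p = 2.3e-05), a call lost with the background fitted to all spots (0.24, adjusted p = 0.50). Ghr, the growth hormone receptor, read -0.11, -0.11, -0.18 and -0.04 against -0.62, -0.52, -0.70 and -0.62 and rose by 0.50 ± 0.06 (limma adjusted p = 0.0003). Il34, the second ligand of Csf1r, differed by 0.34 ± 0.12 (limma adjusted p = 0.071), Epor, the erythropoietin receptor, by 0.18 ± 0.07 (0.090) and Kitl, the Kit ligand, by -0.08 ± 0.05 (0.32), none of them called. Il3, Il5, Kit, Epo, Thpo and Prlr had no probe among those tested.

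Of 21 kinases and adaptors that act below these receptors, 19 were measured, with 2 higher, 2 lower and 15 not called and a median of 0.003. The shares over the brightest probes of all genes were 9.51% higher and 9.67% lower. Jak2, the kinase bound to the beta chain, read -0.04, -0.05, -0.24 and -0.00 on the R175Q arrays and 0.41, 0.46, 0.27 and 0.44 on the wild-type arrays. It did not overlap between groups and fell by 0.48 ± 0.07 (limma adjusted p = 0.0012). Gab1, a docking protein that binds Grb2, fell by 0.34 ± 0.07 (limma adjusted p = 0.0075), lost with the background fitted to all spots (-0.39, adjusted p = 0.25). Ptpn6, the phosphatase SHP-1 that dampens receptors of this family, rose by 0.40 ± 0.08 (limma adjusted p = 0.0082), lost in the same way (0.07, adjusted p = 0.86).

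Stat5b, a transcription factor activated by Jak2, differed by 0.17 ± 0.05 (limma adjusted p = 0.0436), the smallest called difference among these genes, and no array could be left out without losing the call (adjusted p 0.051 to 0.13). The call was also lost with, among others, slide as a block (0.14) and Cy3 alone (0.18). Its partner Stat5a differed by 0.26 ± 0.10 (limma adjusted p = 0.11), Stat3 by 0.19 ± 0.08 (0.15) and the ubiquitin ligase Cbl by -0.20 ± 0.06 (0.057), none called. Shc1, which encodes ShcA and which both groups carry as an introduced cDNA, differed by -0.11 ± 0.10 (limma adjusted p = 0.53), with overlap between groups. It was measured by 1 probe, and whether that probe lies in sequence held by the introduced cDNA was not determined here.

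Of 18 targets and feedback genes of the pathway, 17 were measured; 0 rose, 1 fell and 16 were not called, with a median of 0.010. Socs2, a Stat5 target whose product restrains the receptors, read 0.74, 0.75, 1.06 and 0.90 against 1.43, 1.23, 1.57 and 1.45. All R175Q arrays lay below all wild-type arrays, and Socs2 fell by 0.56 ± 0.09 (limma adjusted p = 0.0024), with its 3 probes between -0.61 and -0.56. Cish, another Stat5 target, differed by -0.08 ± 0.12 (limma adjusted p = 0.69). The next closest to the threshold were Dusp6, a phosphatase acting on ERK, at -0.33 ± 0.11 (limma adjusted p = 0.062), Socs3 at -0.12 ± 0.05 (0.16) and Bcl2, a survival factor, at 0.23 ± 0.12 (0.22). Over the 3 lists together, 5 of 46 measured genes rose, 4 fell and 37 were not called. Among all genes by their brightest probe, 9.51% were called higher and 9.67% lower. The counts of the 3 lists together are near these shares, and nothing about the lists is read from them.

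**Figure D3:**
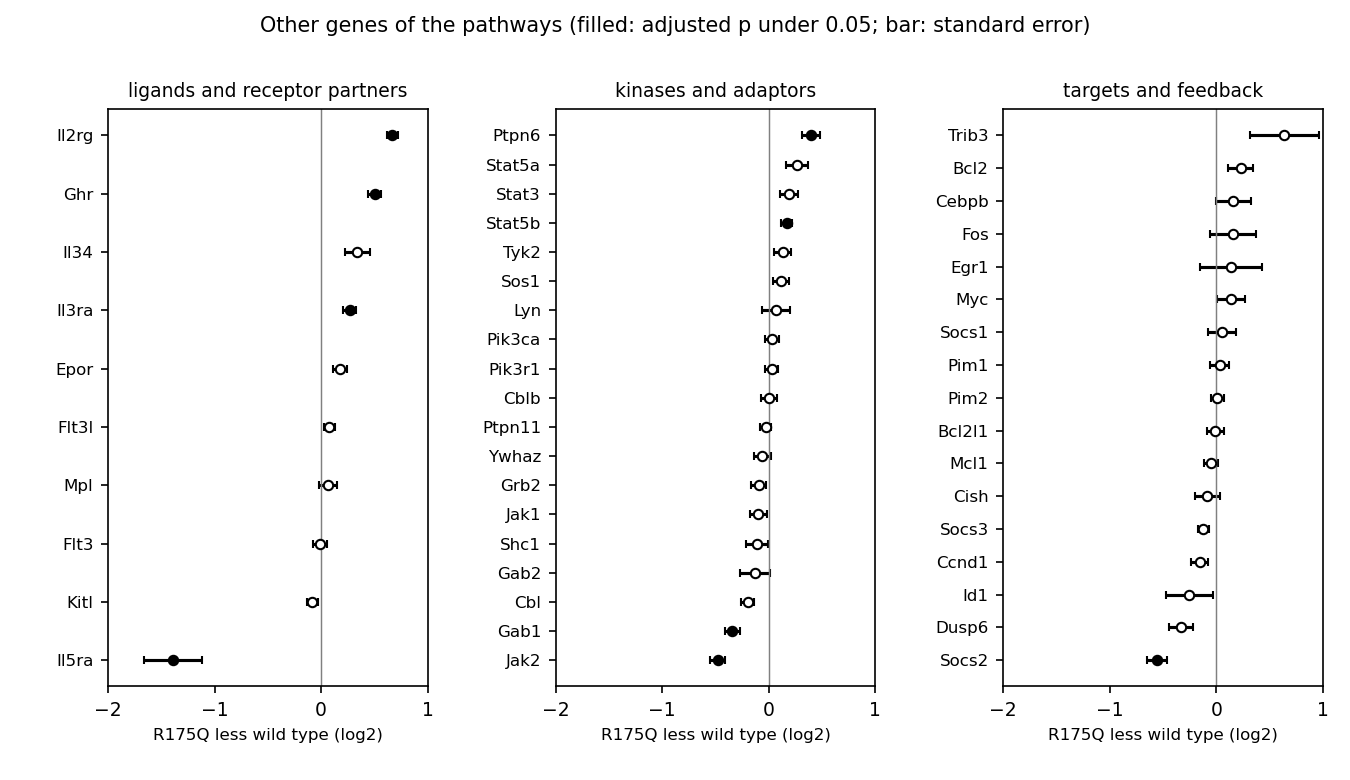
The x axis of each panel is R175Q less wild type (log2) for the measured genes of one list, with the standard error as bar; filled points passed the adjusted p of 0.05. Most points lie near 0, with Il5ra at -1.39 as the farthest and Il2rg at 0.67 as the highest called.

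The beta chain genes lie side by side in the mouse genome, so the genes around them were looked at after their values had been seen, in the order of RefSeq's GRCm38.p6 annotation. Ncf4, a subunit of the phagocyte oxidase and the next gene before Csf2rb2, read -4.68, -4.75, -4.52 and -4.55 on the R175Q arrays and -6.28, -6.16, -6.01 and -6.02 on the wild-type arrays. It rose by 1.49 ± 0.08 (limma adjusted p = 2.9e-06), from Cy3 signals of 131 to 154 in wild type to 445 to 514 in R175Q. Kctd17, a ubiquitin ligase adaptor 4 places after Csf2rb, rose by 0.88 ± 0.07 (limma adjusted p = 3.7e-05), and Ift27, an intraflagellar transport protein, by 0.38 ± 0.09 (0.014). For Ncf4, Kctd17 and Ift27 the differences with the background fitted to all spots are not reported here.

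The genes between them did not all move. Pvalb, next to Ncf4 on the other side, differed by -0.14 ± 0.07 (limma adjusted p = 0.18). After Csf2rb, Tst and Mpst, both sulphur transferases, differed by -0.07 ± 0.07 (limma adjusted p = 0.53) and 0.10 ± 0.06 (0.28), and Tex33 was not measured. Around Csf2ra on chromosome 19, Prdx3, a peroxiredoxin, fell by 0.23 ± 0.07 (limma adjusted p = 0.036), while Gm7102 at -0.29 ± 0.13 (0.17) and Grk5 at -0.03 ± 0.07 (0.85) were not called.

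**Figure D4:**
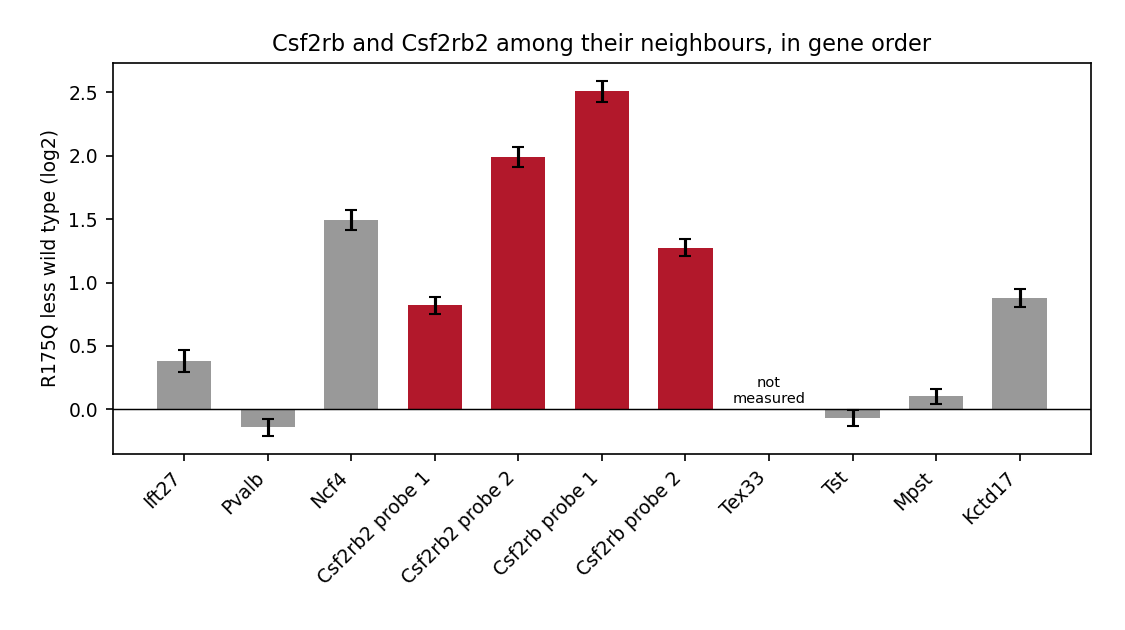
Bars give R175Q less wild type (log2) with the standard error for genes in their order on chromosome 15, with the probes of Csf2rb2 and Csf2rb in red. Csf2rb2, Csf2rb and Ncf4 stand together between 0.82 and 2.51, Pvalb, Tst and Mpst lie near 0, and Kctd17 is at 0.88.

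Since the receptors are best known from blood cells, markers of other cell types were followed beside them. Ptprc, the pan-leukocyte surface marker, lay at -6.40 in R175Q and -6.39 in wild type, with Cy3 of 99.5 to 146 against 15616 to 18461 in the reference. Itgam, a myeloid integrin, was 0.63 and 0.68 above the reference. Of 15 macrophage and myeloid markers, 14 were well above background on at least 4 arrays, Lyz1 on none; Fcer1g rose by 0.30 ± 0.08 (limma adjusted p = 0.033), Mrc1 fell by 0.59 ± 0.09 (0.0016), and the sum of their normalised Cy3 signals overlapped at 45454 to 54321 in R175Q and 44123 to 54572 in wild type. Cd14 alone carried most of that sum; without it the sums were 11042 to 13782 and 10625 to 14172.

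Of 9 granulocyte markers, 3 were well above background on at least 4 arrays and 4 (Mpo, Ngp, Ltf and Mmp8) on none. S100a8 and S100a9, which epithelial cells also make, stood at 4.95 and 2.19 above the reference in R175Q and 4.56 and 2.62 in wild type, not called; the summed signal was 19625 to 25679 and 15216 to 20127, nearly all from S100a8, and 785 to 869 and 797 to 904 without it. Of 8 lymphocyte markers 4 were well above background, with sums of 682 to 739 and 695 to 742. Cd3e lay at -4.51 and -4.32 and Cd3d was well above background on 0 arrays.

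The remaining lists held markers of fibroblasts, endothelium and the cells' own mammary epithelium; over all genes 9.51% were called higher and 9.67% lower. Of 8 fibroblast markers 4 rose and 0 fell, Col1a2 by 0.58, Col3a1 by 0.39, Dcn by 0.72 and Pdgfrb by 1.19. The summed signal was 2699 to 3033 in R175Q against 1746 to 1939 in wild type, without overlap. Pdgfrb had the widest range of raw Cy3 among these markers, 308 to 1159, and was at -1.39 and -2.59 against the reference. The others called lay far below it in both groups, Col1a2 at -7.64 and -8.22, Col3a1 at -8.05 and -8.44 and Dcn at -7.14 and -7.86. Col1a1, not called, was at -8.05 and -8.14. Of 6 endothelial markers Vwf rose by 0.85, with Pecam1 at -3.32 and -3.17 and Cdh5 well above background on 0 arrays, and sums of 725 to 776 and 632 to 699. Of 10 mammary epithelial markers 3 fell and 0 rose, Krt7 by 1.89, Krt8 by 0.22 and Krt19 by 0.41, with sums of 306278 to 346661 in R175Q and 376841 to 433355 in wild type. Krt8, Krt18, Krt19 and Cdh1 carried nearly all of these. The other 6 markers summed to 899.5 to 1073 and 2099 to 2828. Of these 6, Krt7 was the brightest, with raw Cy3 of 365 to 2229 over all arrays. Each of the rest stayed at or below 248, the highest value of Krt14, and none of them was called. Cdh1, the epithelial cadherin, was at 4.73 in both groups and Epcam at -5.07 and -4.81. Sums without the brightest markers (mean signal above 10000) were added after the data were seen. The part of these marker differences in the values of the receptor genes was not tested.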

How the data were processed

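The deposited scanner files, made by the authors with Agilent Feature Extraction 9.5.3.1 per the file headers, hold spot intensities in both channels and a log10 ratio; the authors' deposited value table was taken as log2. Its columns correlated with the scanner's Cy3 over Cy5 at r of 0.901 to 0.941, which gives direction; scale and centring are unknown, and its column medians were 0.0585, 0.0562, 0.0607 and 0.0546 for R175Q 1 to 4 and 0.0524, 0.0617, 0.0592 and 0.0556 for wild type 1 to 4. The aligning build of the probes is mm9, per the file headers. Each array held 44397 spots, 1377 of them controls.

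Mean intensities less the median local background were corrected with normexp (offset 50), its background level taken from the 153 negative control spots of each channel (means 13.3 to 23.1 in Cy3 and 11.6 to 23.2 in Cy5). A fit to all spots, which gave levels from -690 to -0.369 in Cy3, is an alternative. This choice was made with the results of both known. Loess within arrays, log2 Cy3 over Cy5 and the mean over spots of a probe followed. Probes entered if well above background in Cy3 on 4 of 8 arrays and with no non-uniform outlier spot (130 left out), and limma 3.58.1 in R 4.3.3 was fitted over 22841 probes with Benjamini-Hochberg adjustment. Tested on simulated data for R175Q against wild type over these 22841 probes, it recovered 60% of differences of 0.5 log2 and 98% of those of 1, with 3.28% of calls false. The simulation used independent normal noise, without slide or scan day effects. It changed a far smaller share of probes than the 18.7% called in the data, so its rates need not hold for them. RefSeq matched 26755 of 28389 probe accessions and changed 2877 symbols.

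Arrays carry no read depth; their number limits precision. Cy3 was well above background for 53.7% to 63.0% of non-control spots and Cy5 for 61.1% to 71.7%, with 0 saturated spots. Arrays correlated at r of 0.982 to 0.996 within groups and 0.969 to 0.980 between them. R175Q 1 was alone on a slide. R175Q 2 with wild type 1, R175Q 3 with wild type 2 and 3, and R175Q 4 with wild type 4 shared slides. R175Q 1 was also the only array of its scan day. R175Q 2 and wild type 1 shared a scan day, and the remaining 5 arrays shared another.

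Genes are named by a rule: all members, called pathway genes and the 3 next by p, the first 2 markers of each list, the 3 rises below Csf2rb, and the 5 genes most like it, of which 1 is not reported here; the called markers, Cish, Shc1 and the neighbours were added after values were seen. Members, lists and rules were chosen with earlier results of these data known. Alternatives covered background, normalisation, channel, filter, variance model, blocks and each array left out.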

Additional observations from a re-analysis of the deposited data

Results flagged for a closer look

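In 3 of the 30 groups of 4 member values, 1 array stood apart from the other 3 by more than Dixon's test allows at the 95% level, which chance gives in about 1 group in 20. Csf2rb2 probe 1 was at -3.61 on R175Q replicate 3, where the other R175Q arrays lay between -3.88 and -3.83. Csf1r probe 3 was at -2.59 on wild-type replicate 1, with the others between -2.45 and -2.42. Csf3 was at 2.04 on wild-type replicate 1, with the others between 0.98 and 1.12; R175Q replicate 2, on the same slide, read 2.31 at this probe.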

How the results depend on the processing

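With the background fitted to all spots, the calls over all probes were 482 higher and 429 lower in place of 2037 and 2223, while 1876 and 2000 of the called probes kept their direction; members called were 3 higher and 0 lower, pathway genes 1 higher and 2 lower, Csf2rb probe 1 was 2.10, Csf2rb2 probe 1 turned to -0.21 and Csf2ra was -0.72. The cause was not tested. Median centring gave Csf2rb 2.69 and Csf2rb2 probe 1 0.93, and moved the calls to 2162 higher and 1508 lower, or 58.9% higher against 47.8%. Cy3 alone gave 2.94, 0.97 and, for Csf2ra, -1.70; the deposited table gave 2.70 and 0.97, and the scanner's ratio 1.49 for Csf2rb2 probe 1. Counting the brightest probe of each gene left 2 members higher, by its construction, and slide or scan day as a fixed block 3 pathway genes higher. Leaving out 1 array gave 1451 to 2511 probes higher and 1467 to 2705 lower, members 4 to 6 higher and 1 to 1 lower, pathway genes 4 to 8 higher and 4 to 5 lower, Csf2rb 2.45 to 2.58, Csf2rb2 probe 1 0.76 to 0.85 and Csf2ra -1.28 to -1.17; the 1467 came without wild-type replicate 1 and the 8 without wild-type replicate 3. Same-numbered arrays had deviations correlated at 0.30, 0.02, 0.55 and 0.12 and 2 of 4 R175Q arrays correlated best with their own number, so the numbers were not taken to pair samples; the replicate block gave 2470 higher and 2628 lower, and Stat5b lost its call (limma adjusted p = 0.052). Over all alternatives and the 15 member probes, with the values above included, 323 values stayed within the spread between replicates, 21 moved further and 1 reversed, that of Csf2rb2 probe 1. Many of the 323 were fixed in advance. The filters, the brightest-probe run, the variance model and the replicate block leave a difference unchanged. Leaving out 1 array cannot move it beyond this spread. The 323 therefore does not measure how stable the differences are. Of the pathway genes' values, 183 kept their call and 24 lost it. Low signal limits Csf2rb probe 2, Csf2rb2 probes 1 and 2, Csf2ra, Csf1r, Csf3, Il5ra and Ncf4.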
